A study of Mus musculus with 8 samples.

Results

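Paneth cells sit at the base of small intestinal crypts and fill the lumen with antimicrobial proteins, of which the alpha-defensins are the most studied. The genes described here are 9 other products linked to this cell type, namely Lyz1, Ang4, Mptx1, Mptx2, Itln1, Mmp7, Pnliprp2, Nupr1 and Sntb1. They were taken by gene name, 1 row each, from a table of 55880 genes, and all 9 passed the filter on low counts that left 14897 genes for testing. RNA-seq was made from small intestinal crypts of C57BL/6N mice before irradiation. By label, 4 libraries come from miR-29ab1-/- mice, called the labelled knockout group, and 4 from wild-type mice. The labels give no age, no treatment and no cell type to which the deletion is limited. They name no litter, day or batch either, so p-values measure the spread between these 8 libraries, which may be technical in part.

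The study concerns miR-29ab, stem cells of the intestine and their energy metabolism. Paneth cells bear on stem cell fate as neighbours: they lie between the Lgr5 stem cells and supply ligands such as Wnt3, EGF and Notch ligands. Their differentiation needs Wnt signalling and the transcription factor Sox9, and their secretory granules depend on the endoplasmic reticulum and on autophagy. In mice the granules hold lysozyme, defensins, ribonucleases and lectins, and matrilysin in the same granules cuts the defensin precursors into active peptides.

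The microRNAs named in the genotype lie on the minus strand of chromosome 6, miR-29a-3p at chr6:31062673-31062694 and miR-29b-3p at chr6:31063025-31063047. They share 1 seed, bases 2 to 8, shown in capitals in the mature sequences from RefSeq (GRCm38.p6), because seed pairing is the usual way a microRNA finds its targets.
mmu-miR-29a-3p: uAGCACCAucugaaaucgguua
mmu-miR-29b-3p: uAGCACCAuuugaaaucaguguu
The site that pairs with this seed, TGGTGCT, was found in the 3' UTR of 0 of the 9 genes. Their 3' UTRs in GENCODE M21 were 53 bases (Pnliprp2) to 786 bases (Lyz1) long in 8 genes and 2947 bases in the longest transcript of Sntb1. Among all tested genes with a 3' UTR of at least 50 bases, 2039 of 12386 (16.5%) held the site, and the median of the longest 3' UTR per tested gene was 1170 bases, longer than in 8 of the 9 genes. The absence of these letters says nothing of other kinds of pairing.

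Before the results, 2 features of the libraries need stating. Mir29b-1 had 2 to 7 counts in each labelled knockout library and 0 in each wild-type library, and Lncpint, next to the locus, had 8408 counts in all in the labelled knockout group against 50 in the wild-type group. Mir29a had 0 counts in every library. A plain reading of the genotypes would have the Mir29b-1 counts the other way round. It gives no direction for Lncpint, which lies outside the microRNA genes. Groups therefore keep the names on the labels, and each direction below rests on those names. Labelled knockout replicate 4 also stood apart. Its 10 enterocyte markers summed to 51939 CPM (counts scaled to a common library size), against 12371 to 27034 in the other 3 labelled knockout libraries and 16876 to 27079 in wild type. Its 10 stem cell markers summed to 1307 CPM, against 2662 to 4217 in the other 3 labelled knockout libraries and 2450 to 4824 in wild type. In bulk tissue, fewer cells of a type and less RNA per cell cannot be told apart. The part of these differences in the results on Paneth products was not tested. Depth was 13879472 to 17368666 counts per library.

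Paneth products were among the most abundant transcripts of these crypts. On the length-corrected scale of the authors' FPKM, Lyz1, the Paneth cell lysozyme that cleaves bacterial cell walls, ranked 6 of all genes, with 10312 ± 3714 FPKM in the labelled knockout group and 5543 ± 1559 FPKM in wild type (SD, n = 4 each). Itln1, a lectin that binds microbial sugars, followed at rank 16, and Ang4, an antimicrobial ribonuclease, at rank 18. These neighbours could not be ordered, since Itln1 was above Ang4 in 5 of 8 libraries. Mptx2, a mucosal pentraxin, ranked 33, below Ang4 in 8 of 8 libraries. Pnliprp2, a lipase, and Mmp7, the matrilysin that activates mouse defensins, ranked 131 and 137, and each was above the other in 4 of 8 libraries. Mptx1 (rank 1771) and Nupr1 (rank 2538) likewise split the libraries 4 to 4. Sntb1 was the lowest at rank 7313, with 7.36 ± 3.88 FPKM in the labelled knockout group and 2.46 ± 0.947 FPKM in wild type (SD, n = 4 each). The abundant products of the set were thus 6, Lyz1, Itln1, Ang4, Mptx2, Pnliprp2 and Mmp7. Nupr1, a stress-induced chromatin protein, and Sntb1, a syntrophin that links membrane proteins to the dystrophin complex, are not restricted to Paneth cells. Whole crypts do not show which cells made any of these transcripts, the abundant ones included.

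**Figure D1:**
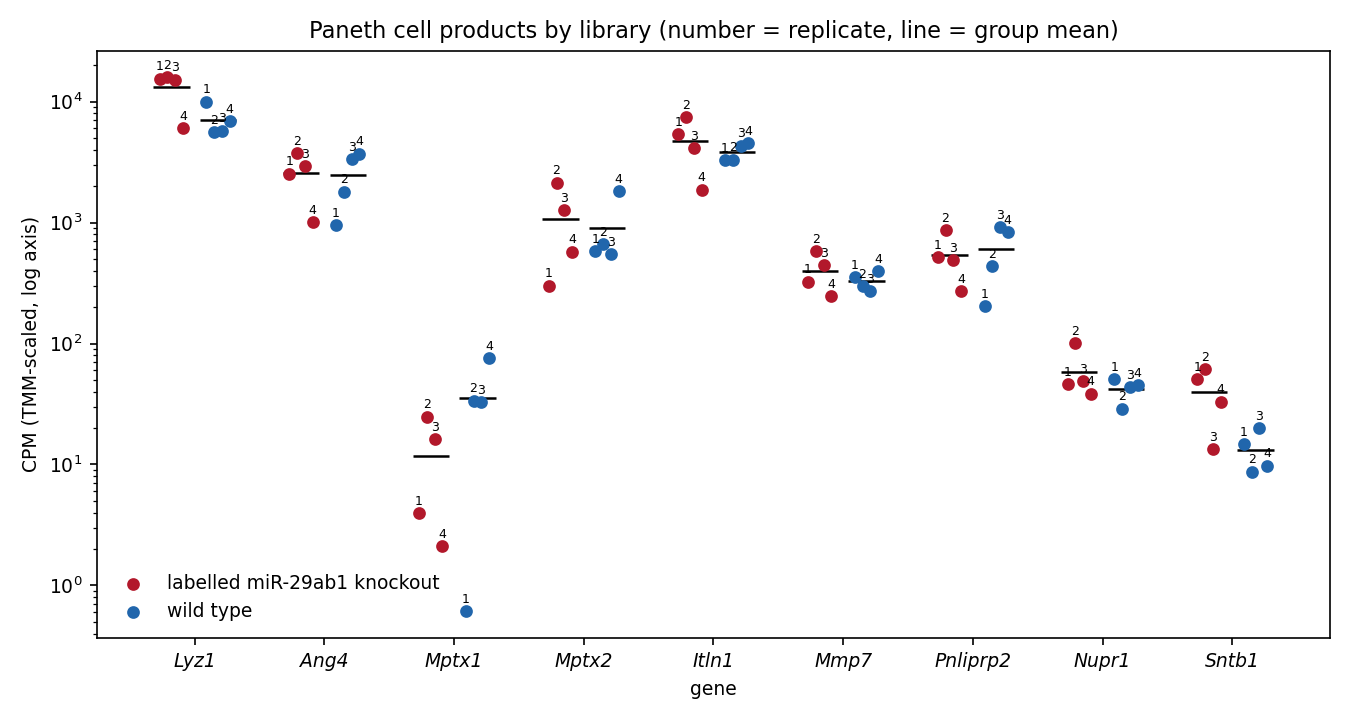
CPM (TMM-scaled, log axis) of the 9 genes in each library, labelled knockout left of wild type, with replicate numbers and group means as lines. The groups overlap for every gene, and labelled knockout replicate 2 is the highest library for 7 of the 9.

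The 9 genes took 2.42%, 2.96%, 2.76% and 0.837% of all counts in labelled knockout replicates 1 to 4, against 1.18% to 1.91% in the wild-type libraries. Labelled knockout replicates 1 to 3 thus lay above all wild-type libraries and the other one below all of them. Lyz1 was the largest single part of this sum in every library. It alone took 1.52%, 1.52%, 1.71% and 0.500% in labelled knockout replicates 1 to 4. In wild type replicates 1 to 4 it took 1.12%, 0.545%, 0.567% and 0.722%. The order of the sums therefore leans on Lyz1 and does not hold for each member. The alpha-defensins took 3.58%, 5.89%, 2.49% and 1.34% in labelled knockout replicates 1 to 4, against 1.92%, 1.90%, 2.63% and 2.03% in wild type replicates 1 to 4. Labelled knockout replicate 4 was the lowest library on both measures. Labelled knockout replicate 2 was the highest on both.

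**Figure D2:**
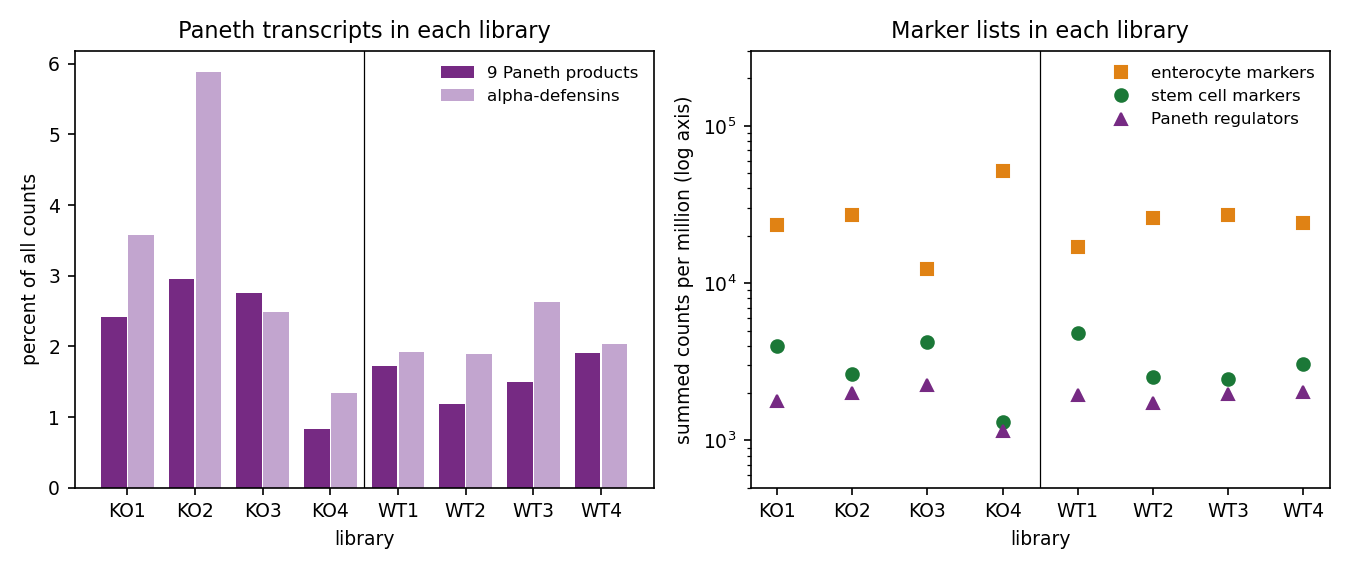
Left, percent of all counts taken by the 9 Paneth products and by the alpha-defensins in each library. Right, summed CPM (log axis) of enterocyte markers, stem cell markers and Paneth regulators; labelled knockout replicate 4 (KO4) is highest for the first and lowest for the other 2.

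The comparison of the labels asked whether any Paneth product differed with the deletion. None of the 9 passed the threshold of 0.05 in edgeR's quasi-likelihood test with Benjamini-Hochberg adjustment over all genes, where 3 of 14897 genes passed (0.0201%), all of them higher in the labelled knockout group. At an unadjusted p under 0.05 the members counted 2 of 9, Sntb1 and Lyz1, where 2.7% of all tested genes lay under that limit. Both were higher in the labelled knockout group, and 1.87% of all tested genes were higher under the same limit. Sntb1 stayed under that limit in all 17 alternatives run, but Lyz1 was over it in 10 of them, and Mptx1 came under it in 1. DESeq2 and limma-voom also called 0 of the 9 after adjustment. The log2 fold changes, labelled knockout over wild type, were above 0 for 7 members and below 0 for 2, with a median of 0.27, where 52% of all tested genes lay above 0 and their median was 0.011. Without labelled knockout replicate 2 the members' median turned to -0.028, with 4 of 9 above 0. The CPM of the groups overlapped for all 9 members, while 1.53% of all tested genes had groups that did not overlap.

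**Figure D3:**
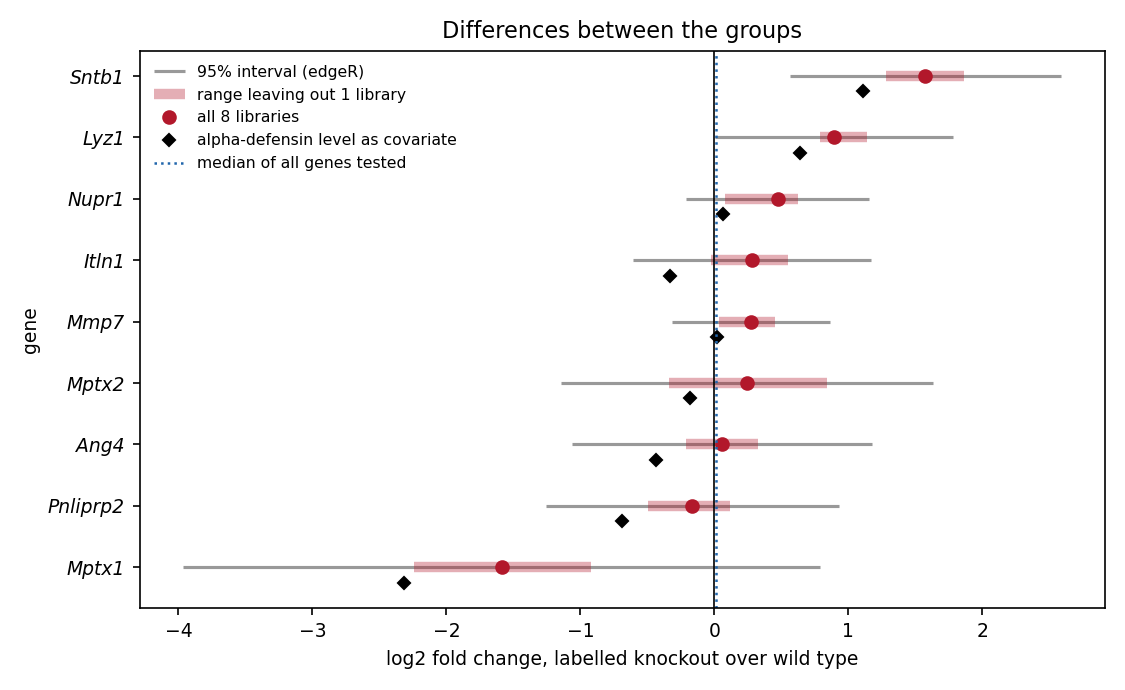
Log2 fold change of each gene, labelled knockout over wild type: points are the fit of all 8 libraries, grey lines its 95% interval, red bars the range when 1 library is left out, diamonds the fit with the alpha-defensin level as a covariate. Only the intervals of Sntb1 and Lyz1 lie above 0, and no gene passed after adjustment over all genes.

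Lyz1 (chromosome 10, 117287797 to 117292868 on GRCm38, minus strand) had the most abundant transcript of the set. It stood at 15499, 15845, 15229 and 5998 CPM in labelled knockout replicates 1 to 4, against 10009, 5618, 5763 and 6929 CPM in wild type replicates 1 to 4. The first 3 labelled knockout libraries were nearly equal and above all wild-type libraries, while the fourth lay within the wild-type range. The log2 fold change was 0.89 (SE 0.40, 95% interval 0.0034 to 1.78, edgeR adjusted p = 0.994). Without labelled knockout replicate 4 it was 1.14 (SE 0.27, edgeR adjusted p = 0.995). The authors' deposited table gives a log2 fold change of 0.90 for Lyz1 with an adjusted p of 0.704.

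Lyz1 has a near copy, Lyz2, the lysozyme of macrophages, whose transcript matched it at 1211 of 1262 aligned bases (96.0%). Reads in the identical stretches, up to 118 bases long, could be split between both genes in a way not given in the sources used here. Lyz2 had 231 counts in the labelled knockout group and 360 in wild type, against 789541 and 454565 counts for Lyz1. How many Lyz2 reads were assigned to Lyz1 is not known from these counts. Myeloid markers summed to 19.7 to 29.2 CPM in the labelled knockout group and 21.5 to 46.4 in wild type.

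Itln1 stood at 5366, 7410, 4106 and 1873 CPM in labelled knockout replicates 1 to 4, against 3269, 3315, 4321 and 4520 CPM in wild type replicates 1 to 4. The wild-type libraries were close together, with a coefficient of variation of 17.0%, while the labelled knockout libraries spanned the wild-type range on both sides, at 49.5%. Itln1 had a log2 fold change of 0.28 (95% interval -0.61 to 1.17, edgeR adjusted p = 0.994), which moved to 0.55 when labelled knockout replicate 4 was dropped and to -0.028 when replicate 2 of that group was.

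Ang4 showed no such tightness in either group. Its values were 2542, 3756, 2917 and 1001 CPM in labelled knockout replicates 1 to 4 and 950, 1805, 3336 and 3720 CPM in wild type replicates 1 to 4. A low library occurred in each group, labelled knockout replicate 4 and wild type replicate 1. For Ang4 the log2 fold change was 0.059 (95% interval -1.06 to 1.18, edgeR adjusted p = 0.998), an interval that leaves room for a difference of up to 2.26-fold upward or a ratio down to 0.479. It ran from -0.21 without wild type replicate 1 to 0.33 without wild type replicate 4. The related ribonuclease Ang, 86.6% identical over the aligned transcript, had 1668 counts in the labelled knockout group and 1425 in wild type.

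The pentraxin pair Mptx1 and Mptx2 lies on chromosome 1 at 174330518 to 174332873 (plus strand) and 173274382 to 173277777 (minus strand) on GRCm38. Pentraxins form ring-shaped complexes that bind bacterial surfaces. The transcripts were identical at 734 of 794 aligned bases (92.4%), with a longest shared stretch of 112 bases, so part of the reads may not separate them. Mptx2 was the more abundant in 8 of 8 libraries.

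Mptx1 was the most variable member, with a 123-fold range over the 8 libraries. It stood at 3.97, 24.8, 16.1 and 2.11 CPM in labelled knockout replicates 1 to 4, against 0.613, 33.6, 32.7 and 75.2 CPM in wild type replicates 1 to 4. Wild type replicate 1, with 10 counts, was the lowest of all libraries, and the other 3 wild-type libraries were above every labelled knockout library. Mptx1 had a log2 fold change of -1.59 (SE 1.05, 95% interval -3.96 to 0.79, edgeR adjusted p = 0.994). It became -1.99 (SE 0.74, edgeR adjusted p = 0.999) with wild type replicate 1 left out. With labelled knockout replicate 2 left out it was -2.24, and with wild type replicate 4 left out -0.92.

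Mptx2 had a narrower range than Mptx1. It stood at 301, 2133, 1267 and 576 CPM in labelled knockout replicates 1 to 4, against 580, 666, 548 and 1816 CPM in wild type replicates 1 to 4. A pair of libraries in the labelled knockout group and 1 in wild type were high, and the log2 fold change was 0.25 (95% interval -1.14 to 1.63, edgeR adjusted p = 0.994). Dropping wild type replicate 4 gave 0.84, and dropping labelled knockout replicate 2 gave -0.34. Mptx1 and Mptx2 lay on the same side of their own means in 6 of 8 libraries, all but wild type replicates 2 and 3. Their lowest libraries differed, with wild type replicate 1 the lowest for Mptx1 and labelled knockout replicate 1 the lowest for Mptx2.

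Because Paneth products vary along the gut, markers of proximal and distal intestine were counted beside these values. The 8 distal markers summed to 479, 1013, 722 and 1797 CPM in labelled knockout replicates 1 to 4 and 429, 1379, 1596 and 927 in wild type replicates 1 to 4. Muc3 was the largest distal marker in every library, so this sum leans on 1 gene. Its TMM-scaled CPM were 215, 791, 495 and 1459 in labelled knockout replicates 1 to 4. In wild type replicates 1 to 4 they were 158, 1060, 1044 and 711. The 8 proximal markers spanned 601 to 949 CPM in the labelled knockout group and 488 to 884 in wild type. Wild type replicate 1 had the lowest sum of both lists and the lowest Mptx1, Ang4 and Pnliprp2. Labelled knockout replicate 4 had the highest sum of both lists, and it ranked 7 of 8 libraries for each of these genes. The part of gut position in these values was not tested.

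Mmp7 (chromosome 9, 7692090 to 7699585, plus strand), the activator of the defensin precursors, had the smallest spread of the 9. It stood at 325, 581, 443 and 246 CPM in labelled knockout replicates 1 to 4, against 355, 298, 271 and 395 CPM in wild type replicates 1 to 4. The labelled knockout libraries reached above and below the wild-type range. Mmp7 had a log2 fold change of 0.27 (95% interval -0.32 to 0.86, edgeR adjusted p = 0.994), which came to 0.035 when labelled knockout replicate 2 was dropped. A noncoding RNA annotated on the opposite strand, AV064505, had 38 counts in the labelled knockout group and 13 in wild type, against 24016 and 21051 for Mmp7.

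Pnliprp2, a lipase named after the pancreas, was set beside markers of pancreatic acinar cells. Of 12 acinar markers, Cpa1, Cela2a, Pnlip and Cuzd1 had 0 counts in all libraries, and the 12 summed to at most 3.64 CPM in the labelled knockout group and at most 3.22 CPM in wild type. Pnliprp2 itself stood at 515, 863, 488 and 271 CPM in labelled knockout replicates 1 to 4, against 203, 437, 920 and 837 CPM in wild type replicates 1 to 4. The order of libraries was close to that of Ang4, with wild type replicate 1 and labelled knockout replicate 4 lowest. Pnliprp2 had a log2 fold change of -0.16 (95% interval -1.26 to 0.93, edgeR adjusted p = 0.994), and it was 0.12 without wild type replicate 3. Its relative Pnliprp1, with 65.5% identical bases, had 559 counts in the labelled knockout group and 611 in wild type.

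Sntb1 (chromosome 15, 55636388 to 55906949, minus strand) differed between the groups by nearly as much as Mptx1, in the opposite direction. It stood at 50.7, 61.1, 13.3 and 32.97 CPM in labelled knockout replicates 1 to 4, against 14.6, 8.71, 19.9 and 9.75 CPM in wild type replicates 1 to 4. Labelled knockout replicates 1, 2 and 4 were above all wild-type libraries and replicate 3 was within their range. For Sntb1 the log2 fold change was 1.57 (SE 0.45, 95% interval 0.56 to 2.59, edgeR adjusted p = 0.994), a 2.98-fold ratio. With 1 library left out it was lowest, 1.28, when labelled knockout replicate 2 was dropped, and highest, 1.86, when replicate 3 of that group was, where edgeR's adjusted p was 0.252. In the authors' deposited table Sntb1 has a log2 fold change of 1.58 with an adjusted p of 0.130. The library that was low for Lyz1, labelled knockout replicate 4, was high for Sntb1, and labelled knockout replicate 3 was the reverse. Its relative Sntb2, another syntrophin, had a log2 fold change of 0.026 (edgeR adjusted p = 0.994).

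Nupr1 stood at 46.4, 100.2, 49.0 and 38.6 CPM in labelled knockout replicates 1 to 4, against 50.9, 28.97, 43.6 and 45.5 CPM in wild type replicates 1 to 4. A single library, labelled knockout replicate 2, was high, and the others overlapped. Nupr1 had a log2 fold change of 0.47 (95% interval -0.21 to 1.16, edgeR adjusted p = 0.994), which came to 0.080 when labelled knockout replicate 2 was dropped. Nupr1 is a known target of the integrated stress response, so 18 genes of that response were counted beside it. Of 17 tested, none passed in edgeR, 13 were above 0 and 4 below, with a median of 0.13. The smallest p-values of the list belonged to Trp53inp1, an autophagy and cell death gene, at 0.93 (SE 0.17, adjusted p = 0.758 in edgeR), and Ddit4, an mTOR inhibitor, at 0.46 (SE 0.18, adjusted p = 0.994 in edgeR). DESeq2 called Trp53inp1 as higher in the labelled knockout group, and no other gene of the lists.

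Some libraries were high or low for many members at once. Labelled knockout replicate 2 was above the member's own mean for 9 of 9 genes, and labelled knockout replicate 4 below it for 8 of 9, all but Sntb1. Wild type replicate 2 was also below for 8 of 9, all but Mptx1. The closest pair of members was Ang4 and Pnliprp2, whose centred log2 CPM differed by a root mean square of 0.22 over the 8 libraries, followed by Mmp7 and Nupr1 at 0.27. Mptx1 was 1.55 or more from every other member.

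**Figure D4:**
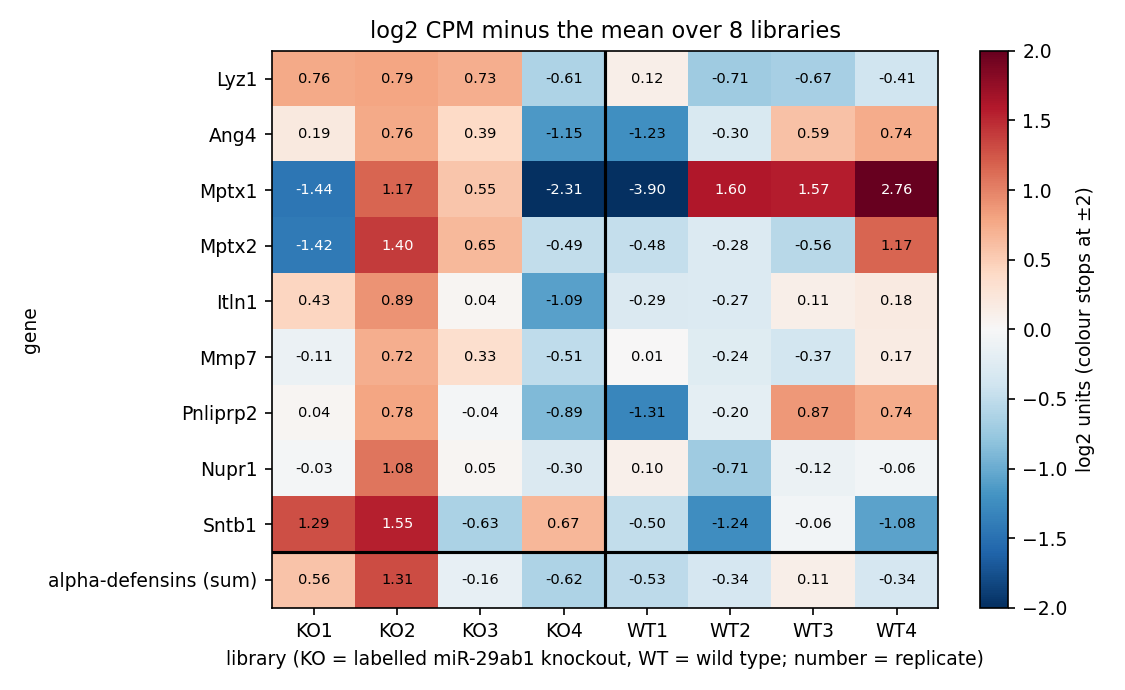
Log2 CPM of each gene minus its own mean over the 8 libraries, with the summed alpha-defensins in the bottom row. Labelled knockout replicate 2 (KO2) is above the mean in every row, and Lyz1 and Sntb1 differ from each other in KO3 and KO4.

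Set against the summed alpha-defensins of the same library, the members did not all differ in the same direction. On the log2 scale of member counts over alpha-defensin counts, the group means differed, labelled knockout minus wild type, by -1.52 for Mptx1, -0.60 for Pnliprp2, -0.47 for Mptx2, -0.45 for Ang4, -0.41 for Itln1, -0.33 for Mmp7 and -0.15 for Nupr1. The same difference was 0.28 for Lyz1 and 0.90 for Sntb1. For Lyz1, Ang4, Mptx2, Mmp7 and Nupr1 it was smaller in size than the SD of either group. The SDs of Lyz1 were 0.58 in the labelled knockout group and 0.61 in wild type. For Mptx1 and Pnliprp2 the difference was smaller in size than the wild-type SD alone, 2.99 and 0.82. The ratio of Sntb1 was -9.77 ± 0.75 in the labelled knockout group and -10.7 ± 0.45 in wild type, and that of Itln1 was -2.84 ± 0.31 and -2.42 ± 0.23 in the same order (SD, n = 4 each). In a fit with the alpha-defensin level as a covariate, chosen after the data were seen, 4 of 9 members were above 0 with a median of -0.18. That level is itself made of Paneth products. The fit thus describes members at equal alpha-defensin level, not the plain difference between the groups. Sntb1 had 1.11 there (SE 0.39, edgeR adjusted p = 0.966) and Lyz1 had 0.64 (SE 0.45, edgeR adjusted p = 0.966). The alpha-defensins were taken as all genes with names starting with Defa, pseudogenes (Defa-ps) included. Of 36 tested, none passed, 32 were above 0 and 4 below, with a median of 0.77.

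The genes that build and run Paneth cells were counted as background. Of 20 regulators, all tested, none passed, 13 were above 0 and 7 below, with a median of 0.093. Wnt3, the ligand made by Paneth cells, stood at 27.6, 35.8, 22.6 and 13.1 CPM in labelled knockout replicates 1 to 4 and 18.3, 10.5, 20.1 and 11.8 CPM in wild type replicates 1 to 4. The first 3 of these labelled knockout libraries were above all wild-type libraries, and the fold change was 0.71 on the log2 scale (SE 0.32, edgeR adjusted p = 0.994). Bhlha15, a factor of secretory cell architecture, had 0.54 (SE 0.31, edgeR adjusted p = 0.994). Of 10 niche ligands 8 were tested and none passed, with 7 above 0 and a median of 0.16. Dll1, a Notch ligand, had 0.19 (SE 0.11, edgeR adjusted p = 0.994).

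Of 19 other antimicrobial and secreted products 14 were tested and none passed, with 8 above 0, 6 below and a median of 0.40. Habp2, a secreted protease, stood at 109.9, 157.8, 85.3 and 72.1 CPM in labelled knockout replicates 1 to 4 and 61.7, 48.6, 74.2 and 64.8 CPM in wild type replicates 1 to 4. Of the labelled knockout libraries, replicate 4 alone lay inside the wild-type range. The log2 fold change of Habp2 was 0.77 (SE 0.24, edgeR adjusted p = 0.994). Ang had 0.36 (SE 0.20, edgeR adjusted p = 0.994). None of the cell type lists had a member past the threshold: goblet cell markers had a median of -0.10 over 10 tested, enterocyte markers 0.34 over 10, stem cell markers 0.013 over 10, tuft cell markers -0.49 over 7, enteroendocrine markers 0.0081 over 10 and myeloid markers -0.39 over 8. Proximal intestine markers had a median of 0.051 over 7 tested, distal ones 0.020 over 6, muscle and stroma markers -0.81 over 2, and sequence relatives of the members 0.026 over 5, again with none past the threshold. The single acinar marker tested had 0.22.

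**Figure D5:**
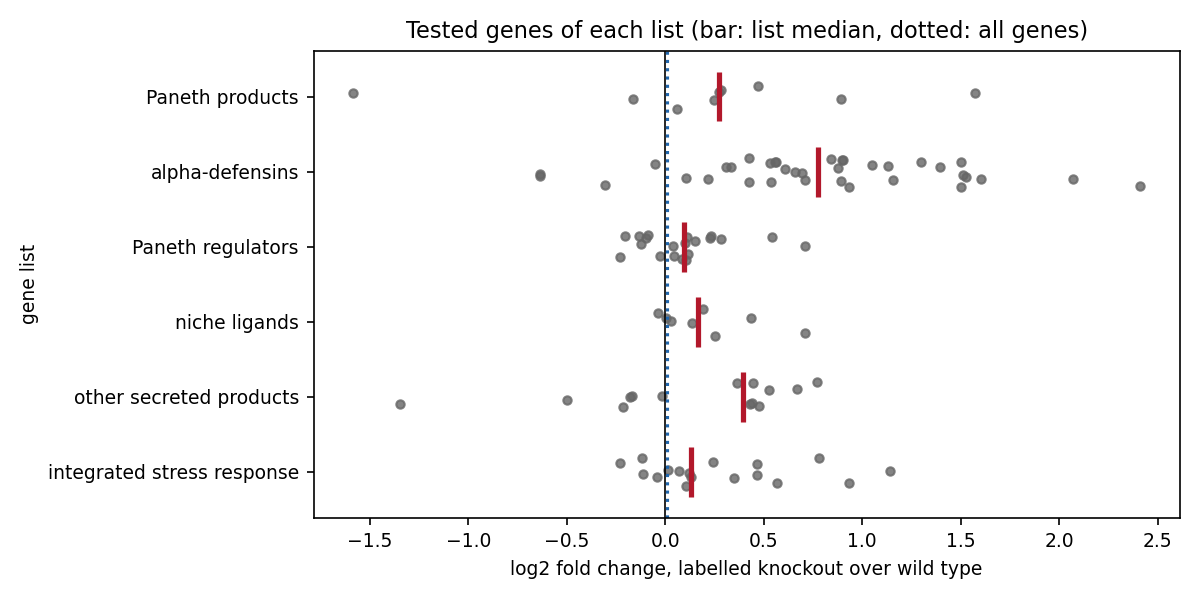
Log2 fold changes, labelled knockout over wild type, of the tested genes in 6 lists, each point a gene and each red bar the list median. The median is 0.27 for the 9 Paneth products, 0.77 for the alpha-defensins and 0.093 for the Paneth regulators, and no gene shown passed the threshold.

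The non-members most like each member were found by the same root mean square difference over 8 libraries among 12526 protein-coding genes. For Ang4 they were Reg4 (0.17), a secreted lectin of crypt secretory cells, and Pnliprp1 (0.26). For Itln1 they were Defa30 (0.18), an alpha-defensin, and Ggh (0.18), a folate hydrolase. For Mmp7 they were Asns (0.14) and Mrgpre (0.15), and for Nupr1 Hsf4 (0.14) and Fhl3 (0.15). For Lyz1 they were 2510009E07Rik (0.23) and Arhgap24 (0.25), for Sntb1 Gad1 (0.30), and for Pnliprp2 Tuba1a (0.25) and Tmem229a (0.25). The genes named for Mptx2 (Gm8251 at 0.52, Grb10 at 0.54) and Mptx1 (Vmn2r26 at 0.95) lay further off. These differences were not scaled to the spread of each member. The root mean square of a member's own centred log2 CPM ran from 0.38 for Mmp7 to 2.15 for Mptx1.

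Start site windows from RefSeq (GRCm38.p6), 250 bases before to 50 bases after the annotated start, matched 8 of the 9 members, all but Sntb1. They are shown for 4: Mmp7, a known Wnt target, Lyz1, the most abundant member, and Mptx1 and Mptx2, a pair of close copies of unequal abundance. Capitals mark matches on either strand to the TCF motif (CTTTGAT or CTTTGTT), the SOX motif (ACAATG) or the E-box (CAGCTG), and on the forward strand to TATAAA.
Mmp7 (chr9:7691840-7692139, plus strand): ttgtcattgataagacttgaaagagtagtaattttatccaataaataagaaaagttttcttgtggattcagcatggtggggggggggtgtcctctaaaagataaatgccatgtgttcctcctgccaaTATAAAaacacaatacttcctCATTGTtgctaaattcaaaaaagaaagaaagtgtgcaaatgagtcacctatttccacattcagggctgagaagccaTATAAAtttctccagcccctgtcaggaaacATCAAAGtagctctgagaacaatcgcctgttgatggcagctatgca
Lyz1 (chr10:117292819-117293118, minus strand): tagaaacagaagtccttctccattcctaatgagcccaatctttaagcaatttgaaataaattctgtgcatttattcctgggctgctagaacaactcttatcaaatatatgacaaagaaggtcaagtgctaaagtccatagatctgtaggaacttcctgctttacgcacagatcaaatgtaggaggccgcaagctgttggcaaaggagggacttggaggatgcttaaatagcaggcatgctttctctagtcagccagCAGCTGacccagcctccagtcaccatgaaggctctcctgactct
Mptx1 (chr1:174330268-174330567, plus strand): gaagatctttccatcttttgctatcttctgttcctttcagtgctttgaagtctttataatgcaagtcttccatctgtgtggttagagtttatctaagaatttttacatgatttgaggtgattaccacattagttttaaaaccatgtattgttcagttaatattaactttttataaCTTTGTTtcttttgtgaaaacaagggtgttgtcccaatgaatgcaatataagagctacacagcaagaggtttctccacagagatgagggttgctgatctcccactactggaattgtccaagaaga
Mptx2 (chr1:173277707-173278006, minus strand): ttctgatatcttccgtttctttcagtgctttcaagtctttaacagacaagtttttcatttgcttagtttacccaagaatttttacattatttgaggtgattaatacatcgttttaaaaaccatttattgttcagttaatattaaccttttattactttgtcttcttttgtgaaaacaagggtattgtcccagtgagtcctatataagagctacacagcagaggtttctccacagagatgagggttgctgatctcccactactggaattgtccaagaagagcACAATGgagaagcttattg
No match overlapped a match of another motif. Mmp7 held a TCF match 4 bases after the start, a SOX match 102 bases before it and TATAAA at 123 and 26 bases before it. Lyz1 held an E-box 6 bases after the start, as did Nupr1 211 bases before its own. Mptx1 held a TCF match 75 bases before the start and Mptx2 a SOX match 31 bases after it. The windows of this pair were identical at 247 of 278 aligned bases (88.8%), and the SOX match lies in the end of the Mptx2 window that runs past the end of the Mptx1 window, so it is no difference between aligned bases. Ang4, Itln1 and Pnliprp2 held none of the motifs in this window. Of all 32851 windows, 9.33% held the TCF motif, 12.6% the SOX motif, 16.3% the E-box and 8.32% TATAAA, against 2, 2, 2 and 1 of the 8 members. A match is a string of letters and was not tested as a binding site.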

How the data were processed

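RNA of small intestinal crypts was extracted with TRIzol and made into strand-marked libraries, per the labels' protocols. The sample titles do not say whether each of the 8 libraries is a single mouse. The tools HISAT2 and DESeq2 appear, with no version, per the submitters' processing notes. Not given in the sources used here are the read counter, its strand setting and the build. The deposited table holds whole-number counts for 55880 genes, per the file headers. A check found each deposited FPKM to be the count divided by gene length and by 1 factor per library. Group means of normalized counts, a signal the authors deposited, carry no result here. The authors' own log2 fold changes and adjusted p-values, as deposited, are quoted where named. Coordinates were the same as in GENCODE M21 (GRCm38) for 99.5% of 55144 shared identifiers, all 9 members among them.

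Tests on the counts ran in edgeR 4.0.16 (R 4.3.3), using its quasi-likelihood test, robust dispersions, TMM scaling, filterByExpr and a threshold of 0.05 after Benjamini-Hochberg adjustment over all tested genes. SE is the absolute log2 fold change over the square root of F, and 95% intervals use the t quantile of that test. CPM are TMM-scaled; sums over lists use total counts; log2 CPM use a prior count of 2. Alternatives were DESeq2 1.42.0, limma-voom (limma 3.58.1), RLE, 2 filters, a replicate block, another scaling, protein-coding genes alone and leaving out each library. The fit was tested on simulated data. Replicates all differed beyond sampling noise, with a chi-square of 32.3 or more for each degree of freedom. The members, 15 gene lists and rules were chosen with earlier results of these data known; the rule for named genes took the members, per list the genes past the threshold and the 2 smallest p, sequence relatives with counts, the 2 genes most like each member and the targeted locus. A few genes that this rule names are not reported here. Transcripts were aligned globally without end gap penalties.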

Additional observations from a re-analysis of the deposited data

Results flagged for a closer look

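A single library stood far from the rest of its group in 3 of 22 groups of 4 examined, where chance gives about 1 in 20. The 22 reuse the same 8 libraries and are not independent, so this count cannot show an excess over chance. Lyz1 was at 5998 CPM in labelled knockout replicate 4, far below the other 3 labelled knockout libraries (15229 to 15845 CPM). Nupr1 was at 100.2 CPM in labelled knockout replicate 2, above the other 3 of that group (38.6 to 49.0 CPM). Mptx2 was at 1816 CPM in wild type replicate 4, above the other 3 wild-type libraries (548 to 666 CPM). Enterocyte and stem cell marker sums of labelled knockout replicate 4 also stood apart, as given above, and their part in the Lyz1 value was not tested.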

How the results depend on the processing

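The count of called genes was 3 in edgeR. It was 21 with DESeq2 (18 higher, 3 lower in the labelled knockout group), 5 with no filter on low counts, and 0 among protein-coding genes alone, where edgeR gave 316 genes at an unadjusted p under 0.05. Leaving out 1 library gave 2 to 3. No member was called under any of the 17 alternatives run; the smallest adjusted p of a member was 0.129, for Sntb1 with DESeq2. Lyz1, Sntb1, Nupr1 and Mmp7 stayed above 0 and Mptx1 below 0 under all 17. With the alpha-defensin level as a covariate, added after the data were seen, Ang4 turned to -0.44, Itln1 to -0.33 and Mptx2 to -0.18. These 3 values are relative to the alpha-defensins, so they ask another question than the main fit. Leaving out 1 library, the ranges were -0.21 to 0.33 for Ang4, -0.028 to 0.55 for Itln1, -0.34 to 0.84 for Mptx2, -0.50 to 0.12 for Pnliprp2, 0.035 to 0.45 for Mmp7, 0.080 to 0.63 for Nupr1, 0.79 to 1.14 for Lyz1, 1.28 to 1.86 for Sntb1 and -2.24 to -0.92 for Mptx1. Of the 9 members, 4 were above 0 when labelled knockout replicate 2 was dropped, and 8 when replicate 4 of that group was. limma-voom gave -0.87 for Mptx1. The cause of these shifts was not tested.

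Deviations of same-numbered libraries from their group means correlated at 0.075, 0.034, -0.39 and -0.087 across genes. Differently numbered libraries were not correlated beside them, so these values cannot show whether the numbers pair the libraries. A replicate block gave 2 called genes, and 1.49 for Sntb1 and 0.84 for Lyz1. Mptx1 had both the lowest count of any member, 10 in a library, and the widest spread between libraries.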
